A study of Mus musculus with 4 samples.

Results

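Nuclear genes for the subunits of the mitochondrial respiratory chain and ATP synthase were examined in whole mouse retina with and without Fezf2. The 37 genes were taken from a fixed list of symbols: 18 for complex I, 4 for complex II, 4 for complex III, 6 for complex IV and 5 for complex V. All 37 were found among the 22558 gene symbols of the deposited files, each at 1 locus.

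Oxidative phosphorylation passes electrons from NADH and succinate through complexes I to IV to oxygen, and the proton gradient that results drives ATP synthase (complex V). Most subunits are encoded in the nucleus and a few in the mitochondrial genome. Photoreceptors crowd mitochondria into their inner segments, and they also run a high rate of glycolysis.

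The samples were retinas of Fezf2 knockout (KO) mice and of littermate controls labelled wildtype, either 7 days (P7) or 14 days (P14) after birth, all on the background strain given as C57/BL/6J. Fezf2 encodes a zinc finger transcription factor. Each of the 4 groups was 1 library, so no comparison has a replicate check, and animal and group cannot be told apart. Litter cannot be told apart from age, while between genotypes the controls are labelled littermates. The labels do not state the knockout allele, the sex of the animals or whether animals were pooled.

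The unit is FPKM, a fragment count divided by transcript length and library depth, each with a lower and an upper bound. Below, 2 libraries differed "beyond counting error" where these bounds did not overlap. The files do not state what the bounds span: they are read here as about 2 standard deviations of a counting error, an assumption on which the name given to these calls and the depths below rest. The bounds say nothing about the spread between animals. Differences are of log2(FPKM + 1), and values of 4 libraries stand in the order control P7, KO P7, control P14, KO P14. The bounds imply about 11900000, 11600000, 9280000 and 12400000 fragments. Fezf2 was at 8.32, 0.592, 4.02 and 0.126 FPKM, low in both KO libraries. Rod genes were abundant, with Nrl, a transcription factor of rods, at 1098 and 1231 FPKM at P14, while 7 skeletal muscle genes summed to 11.8 to 15.9 FPKM, mostly Acta1 (7.85 to 13.1 FPKM). In whole tissue, fewer cells of a type and less RNA per cell cannot be told apart.

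The promoters of 5 members are shown first, because these genes carry the results on age (complex II) and on genotype (Cox6a1 and Cox8a). Each run spans 250 bases before to 50 bases after the start of the gene in RefSeq, on the GRCm38.p6 build, read 5′ to 3′ on the strand of the gene. Capitals mark matches, on either strand, to 3 motifs of factors known to act on respiratory chain genes: GCGCA and GCGC with any base between them (NRF1), CCGGAAG (the ETS family, which includes GABPA) and AAGATGGC (YY1).
Sdha, chr13:74350191-74350490, minus strand: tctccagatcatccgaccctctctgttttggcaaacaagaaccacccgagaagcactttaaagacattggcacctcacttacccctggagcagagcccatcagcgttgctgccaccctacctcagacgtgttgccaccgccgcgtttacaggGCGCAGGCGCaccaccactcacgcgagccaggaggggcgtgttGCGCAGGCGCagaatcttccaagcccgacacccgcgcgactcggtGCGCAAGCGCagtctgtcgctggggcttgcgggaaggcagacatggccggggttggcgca
Sdhb, chr4:140961021-140961320, plus strand: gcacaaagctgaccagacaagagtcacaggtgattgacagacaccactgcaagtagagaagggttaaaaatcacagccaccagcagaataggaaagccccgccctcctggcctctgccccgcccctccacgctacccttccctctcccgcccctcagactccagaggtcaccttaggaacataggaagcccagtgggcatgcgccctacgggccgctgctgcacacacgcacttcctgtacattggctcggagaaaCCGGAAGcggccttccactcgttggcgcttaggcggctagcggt
Sdhd, chr9:50603800-50604099, minus strand: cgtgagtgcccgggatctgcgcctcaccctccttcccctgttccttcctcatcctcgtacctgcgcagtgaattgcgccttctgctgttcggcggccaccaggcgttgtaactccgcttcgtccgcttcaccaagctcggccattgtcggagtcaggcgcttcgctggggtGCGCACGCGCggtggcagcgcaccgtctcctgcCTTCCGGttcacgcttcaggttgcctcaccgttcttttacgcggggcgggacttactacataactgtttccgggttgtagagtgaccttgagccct
Cox6a1, chr5:115348909-115349208, minus strand: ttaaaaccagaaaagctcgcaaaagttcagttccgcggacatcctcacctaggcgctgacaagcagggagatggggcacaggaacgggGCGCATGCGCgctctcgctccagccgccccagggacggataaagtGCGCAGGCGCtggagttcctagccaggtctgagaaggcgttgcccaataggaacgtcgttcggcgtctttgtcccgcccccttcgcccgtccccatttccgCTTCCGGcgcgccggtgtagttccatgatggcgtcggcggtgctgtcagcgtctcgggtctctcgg
Cox8a, chr19:7217567-7217866, minus strand: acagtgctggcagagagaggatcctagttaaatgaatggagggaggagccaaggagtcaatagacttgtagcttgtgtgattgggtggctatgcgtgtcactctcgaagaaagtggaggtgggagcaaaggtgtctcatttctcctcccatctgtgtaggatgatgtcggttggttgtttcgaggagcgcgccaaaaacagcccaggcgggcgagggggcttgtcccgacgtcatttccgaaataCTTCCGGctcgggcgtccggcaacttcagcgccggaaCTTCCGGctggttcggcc

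Sdha held 3 NRF1 matches and no ETS match, Sdhb held 1 ETS match, and Sdhd held 1 of each. Cox6a1 held 2 NRF1 matches and 1 ETS match, and Cox8a held 2 ETS matches. None of these matches overlapped another. Of the members, 29 were matched to 32 promoters in the RefSeq table, and 16 of the 29 genes had at least 1 of the 3 motifs. The NRF1 motif was in 28.1% of the members' promoters, against 4.6% of all 32851 promoters of the table and 9.42% of the 12048 promoters of genes at 1 FPKM or more in any library. The ETS motif was in 18.8%, against 8.86% and 15.9%, and the YY1 motif in 12.5%, against 2.75% and 4.02%. Ndufa2, Ndufb9, Ndufs1, Sdhc, Uqcrc2, Cyc1, Cox4i1 and Atp5a1 were not matched. A match is a run of letters, not evidence of binding.

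The 37 genes were among the better measured in these libraries. Their summed level was 6347, 6736, 6562 and 7215 FPKM, or 1.64%, 1.71%, 1.61% and 1.73% of the summed FPKM of each library. Atp5b, the catalytic beta subunit of ATP synthase, was highest at a mean of 737 FPKM over the libraries, followed by the cytochrome c oxidase genes Cox8a (604 FPKM), Cox4i1 (586 FPKM) and Cox6a1 (497 FPKM). Ndufs1 and Ndufs4 of complex I were lowest, at means of 38.7 and 38.9 FPKM. The median half-width of the members' bounds was 5.31% to 6.16% of the level, so small differences could be seen for most of them.

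**Figure D1:**
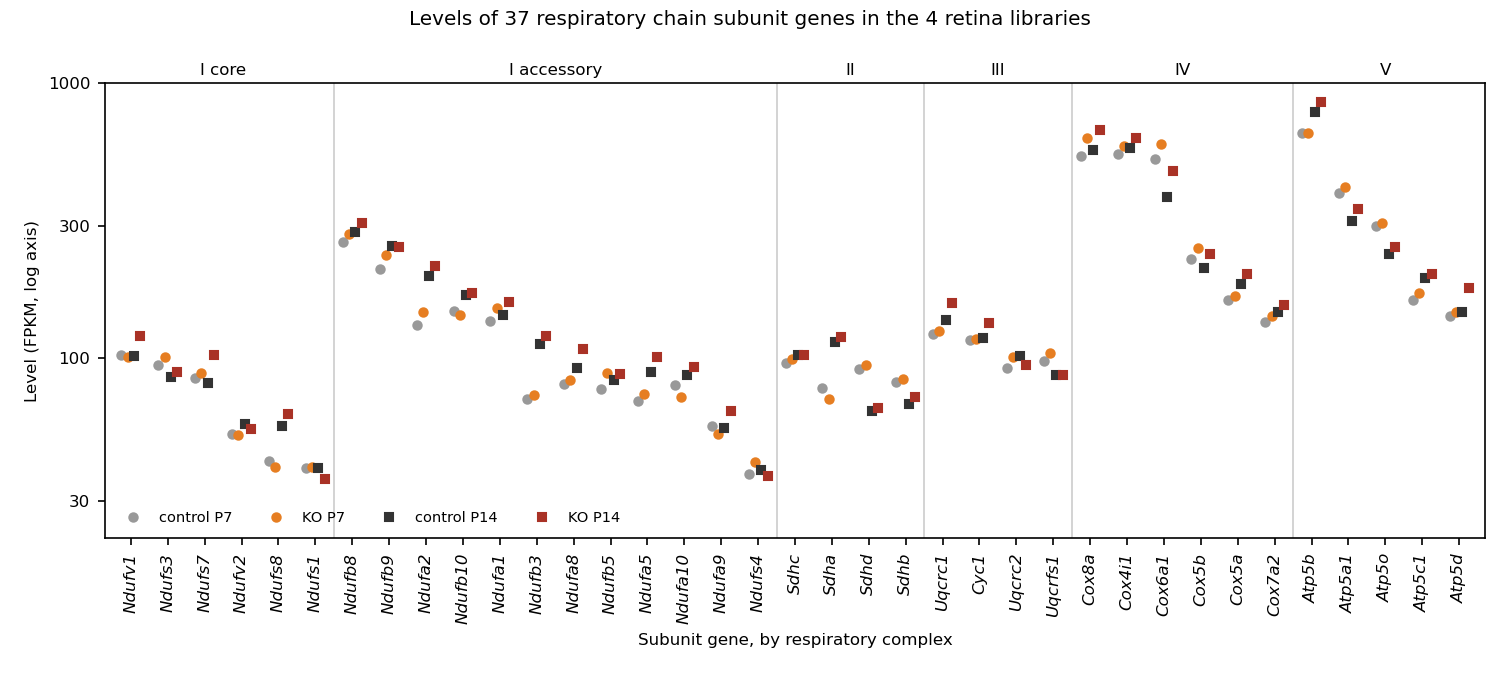
Level of each of the 37 subunit genes (FPKM, log axis) in the 4 libraries, grouped by complex and ordered by mean level. Circles are P7 and squares P14, 1 library each; complex IV and V genes reach the highest levels, and the P14 squares lie above the P7 circles for Ndufb3 and Sdha and below them for Sdhd and Cox6a1.

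An order of levels between genes is less certain than a difference within a gene. FPKM lay above its own upper bound for 33 of the 37 members in each library, at 0.992 to 1.64 times the midpoint of the bounds. For any 1 member this ratio differed by at most 2.26% between libraries, so comparisons within a gene barely depended on it. By the midpoint, Atp5b remained first, whereas Ndufb3 moved from rank 23 to rank 31 and Ndufs1 and Ndufs4 changed places. Reads were 36 bases long and unstranded, and several small subunit genes have processed pseudogenes. The labels do not say how reads shared with such copies were assigned, so each level may hold or lack some of them.

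The effect of Fezf2 loss at P7 was asked first. Complex IV genes Cox8a and Cox6a1 and the complex I gene Ndufb5 had the largest of the differences that were higher in the KO library beyond counting error, and Sdha was lower. Of the 37 genes, 6 were higher beyond counting error, where 7.26% of the 12832 genes at 1 FPKM or more were, and 1 was lower, where 6.09% were. The 6 make up 16.2% of the members. Genes at a mean of 30 FPKM or more, which have narrower bounds and were chosen as a second background after the values were seen, were higher in 16.9% and lower in 4.88%, so the members' shares lay close to those of other abundant genes. The median difference of the members was 0.05 on the log2 scale, equal to that of the abundant genes (0.05), and that of all genes was 0.01. No member reached a 1.5-fold difference, which 1.98% of all genes passed in either direction.

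At P14 the same comparison found 11 of 37 members higher beyond counting error, or 29.7%, where 7.37% of 12963 genes were, and 0 lower, where 8.18% were. Among the abundant genes 20.9% were higher and 9.42% lower. Again no member reached a 1.5-fold difference, which 2.38% of all genes passed. The median difference of the members was 0.11, against 0.06 for the abundant genes and 0.00 for all genes. By sign alone, 31 members were higher and 6 lower at P14, and 30 and 7 at P7. With values rescaled to a constant sum without small RNAs and short loci, the split was 27 to 10 at P14 and 22 to 15 at P7, so the balance of signs depends on the scaling. The 11 were Ndufs7, Ndufv1 and Ndufa8 of complex I, Uqcrc1 and Cyc1 of complex III, Cox6a1, Cox8a and Cox4i1 of complex IV, and Atp5d, Atp5a1 and Atp5b of complex V. No complex II gene was among them. Ndufa8, Cyc1 and Cox4i1 overlapped after either rescaling to a constant sum.

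**Figure D2:**
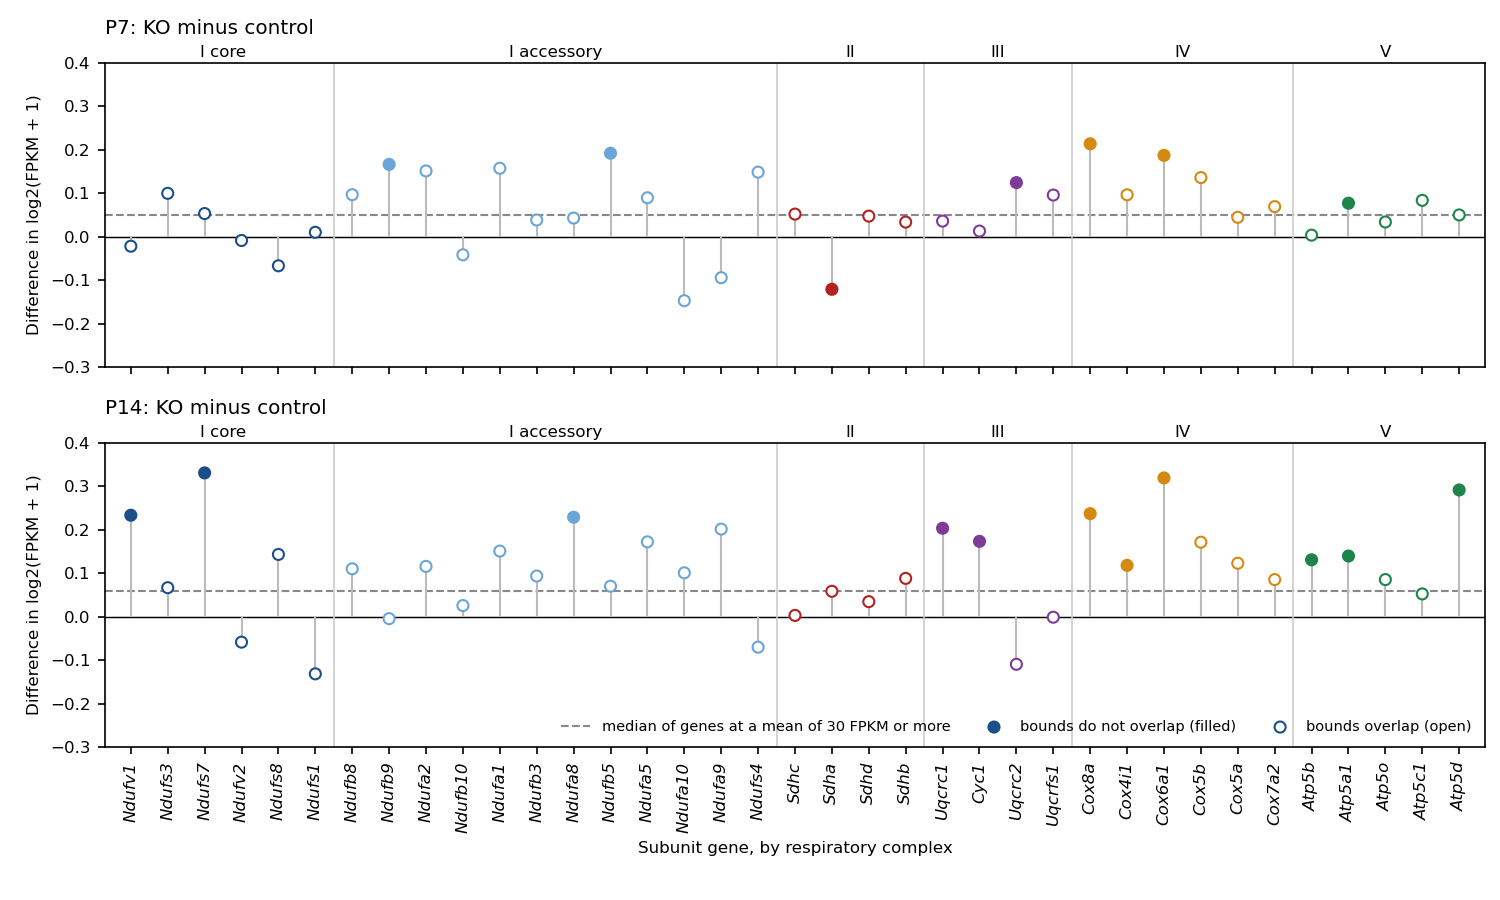
Difference between the KO and the control library in log2(FPKM + 1) for each subunit gene at P7 (top) and P14 (bottom), grouped by complex. Filled points have bounds that do not overlap, and the dashed line is the median of genes at a mean of 30 FPKM or more (0.05 at P7, 0.06 at P14); Cox8a, Cox6a1 and Atp5a1 are filled and above 0 in both panels.

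Both ages shared 3 members that differed beyond counting error, all of them higher in the KO library, and no member differed beyond it in opposite directions. The share of all genes that differed alike at both ages was not computed. Across the 37 genes the differences at P7 and P14, which share no library, had a Pearson correlation of 0.03 and a Spearman correlation of 0.00. Of these genes, 26 had the same sign at both ages. The order of the members at P7 thus did not carry over to P14.

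Cox6a1, the non-muscle form of subunit 6a of cytochrome c oxidase, lies on chromosome 5 from 115795663 to 115798964 of the mm9 build, the build of the files. Its levels were 526, 599, 384 and 479 FPKM. The KO library was the higher at each age, by 13.9% at P7 (0.19) and 24.9% at P14 (0.32), and the bounds did not overlap (318 to 344 against 363 to 392 at P7, 230 to 256 against 290 to 315 at P14).

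Cox8a, the form of subunit 8 used in most tissues, lies on chromosome 19 from 7289648 to 7292106. Its levels were 543, 630, 570 and 672 FPKM, so both KO libraries stood above both controls. The differences were 0.21 at P7 and 0.24 at P14. Atp5a1, the alpha subunit of ATP synthase, was at 395, 417, 314 and 346 FPKM, with smaller differences of 0.08 and 0.14, and its P7 bounds overlapped after rescaling without small RNAs and short loci.

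Within a library, a ratio of levels does not depend on scaling. The ratio of Cox8a to Cox4i1, the gene of a subunit that binds adenine nucleotides, was 0.988, 1.07, 0.986 and 1.07. At P7 the intervals of this ratio, combined from the bounds of both genes, ran from 0.937 to 1.04 in the control and from 1.02 to 1.13 in the KO library, and therefore overlapped. At P14 they also overlapped, at 0.932 to 1.04 and 1.02 to 1.12. The ratio of Cox6a1 to Cox4i1 was 0.957 and 1.02 at P7, with intervals that overlapped, and 0.664 and 0.763 at P14, with intervals of 0.622 to 0.708 and 0.726 to 0.802 that did not. These pairs were chosen after the values were seen.

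The other P7 differences were not seen at P14. Ndufb5, a membrane-arm subunit of complex I, was at 76.7, 87.8, 82.9 and 87.1 FPKM. Ndufb9, of the same arm, was at 210, 236, 254 and 253 FPKM, and Uqcrc2, a core protein of complex III, at 91.9, 100.3, 101 and 93.8 FPKM. All 3 were higher in the KO library at P7 (0.19, 0.17 and 0.12), but their bounds overlapped after either rescaling to a constant sum. Sdha, which was lower in the KO library at P7 (-0.12), did not differ beyond counting error at P14 (0.06).

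At P14 the largest difference among the members was that of Ndufs7, an iron-sulfur subunit of complex I near the quinone site. It was at 84.5, 87.7, 80.7 and 102 FPKM, with the KO library at P14 above the other 3 (0.33). It was the single member both beyond counting error and at least 25% apart by genotype. Atp5d, a central stalk subunit of ATP synthase, was at 142, 147, 146 and 179 FPKM (0.29), again with the P14 KO library alone above. Ndufv1, which binds NADH and FMN in complex I, was at 102, 101, 101 and 119 FPKM (0.23). For these 3 genes, the first 3 libraries lay close together.

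Ndufa8 was at 80.2, 82.6, 91.6 and 108 FPKM (0.23), Uqcrc1, the other core protein of complex III, at 122, 125, 136 and 157 FPKM (0.20), and Cyc1, cytochrome c1, at 116, 117, 118 and 133 FPKM (0.17). Cox4i1 was at 550, 588, 578 and 628 FPKM (0.12), and Atp5b at 655, 657, 780 and 854 FPKM (0.13).

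A limma model with genotype and age as additive terms was run on the 4 libraries. It leaves 1 residual degree of freedom, namely how far the KO difference changed from P7 to P14, and borrows its spread from 13057 genes. For genotype it called 7 genes higher (0.0536%) and 27 lower (0.207%) at an adjusted p under 0.05, and 0 of the 37 members. The lowest adjusted p of a member was 0.572 (limma). At an unadjusted p under 0.05, 2 members were higher and 0 lower, where 7.31% of all genes passed in either direction. These were Cox6a1 (0.25, SE 0.07, unadjusted p = 0.0103 with limma) and Cox8a (0.23, SE 0.06, unadjusted p = 0.0123 with limma). The bounds thus separated individual libraries, while the fit separated no member by genotype.

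Several marker groups also differed by genotype at P14. Of the 5 rod genes 4 were higher beyond counting error in the KO library, with a median difference of 0.11, and they summed to 9230 FPKM (control) and 9822 FPKM (KO). All 5 pigment epithelium genes were lower (189 against 139 FPKM summed), as were 3 of 4 red blood cell genes (962 against 307 FPKM summed), with Slc4a1 near 0 in every library. At P7 the red blood cell sums were 246 and 264 FPKM, and the pigment epithelium sums 79.6 and 92.3 FPKM. The control P14 library also had the fewest implied fragments. The part of any of these in the subunit values was not tested.

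The change from P7 to P14 was asked next, separately in each genotype. Complex I and ATP synthase genes such as Ndufb3, Ndufa2, Ndufs8 and Atp5b were higher at P14, whereas Sdhd, Cox6a1, Atp5o and Atp5a1 were lower. Counting error was exceeded upward by 12 members and downward by 6 in the control, or 32.4% and 16.2%, where 27.2% and 37.3% of 13281 genes were. In the KO, 16 were higher and 7 lower, or 43.2% and 18.9%, where 28.7% and 39% of 13195 genes were. Among abundant genes the shares were 34.9% higher and 39.6% lower in the control, and 36.7% and 40.3% in the KO. The members' median difference was 0.09 in the control and 0.13 in the KO, against -0.09 for all genes in each, and the control median turned to -0.0044 when values were rescaled without small RNAs and short loci.

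Median-of-ratios scaling raised the median of all genes from -0.09 to 0.02 in the control and from -0.09 to 0.01 in the KO, and the members' medians to 0.21 and 0.24. Under the 4 scalings the members' median lay 0.16 to 0.23 above that of all genes. Each scaling multiplies every gene of a library by the same factor, so this offset could change little and is no check. As deposited, the median of the abundant genes was -0.03 in the control and -0.04 in the KO, nearer to that of the members. By sign, 26 members were higher and 11 lower in the control as deposited, 18 and 19 after rescaling without small RNAs and short loci, and 30 and 7 with median-of-ratios scaling. For the KO these splits were 25 to 12, 19 to 18 and 28 to 9. Every member that differed beyond counting error kept its direction under the 4 scalings.

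Control and KO gave much the same ranking of members. Their age differences, which share no library, had a Pearson correlation of 0.89 and a Spearman correlation of 0.79 over the 37 genes, and 30 had the same sign. Beyond counting error, 10 genes were higher in both genotypes and 6 lower in both, and none differed in opposite directions. The share of all genes alike in both genotypes was not computed, nor was the correlation over all genes. The agreement therefore cannot be called particular to the members. The 6 lower in both were Sdhb, Sdhd, Uqcrfs1, Cox6a1, Atp5a1 and Atp5o.

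The age term of the same limma fit called 12 members higher and 6 lower at an adjusted p under 0.05, against 28.9% and 38.9% of the 13057 genes tested. Without a filter on low values 11 of these 18 were called, and Ndufa8, Ndufa10, Ndufb10, Uqcrc1, Uqcrfs1, Cox5a and Atp5b were not. Without a variance trend Ndufa10, Ndufb10, Uqcrc1, Uqcrfs1 and Cox5a were not called, and with median-of-ratios scaling Sdhb and Uqcrfs1 were not. The 12 that rose were Ndufa2, Ndufa5, Ndufa8, Ndufa10, Ndufb3, Ndufb10, Ndufs8, Sdha, Uqcrc1, Cox5a, Atp5b and Atp5c1, and the 6 that fell were those lower in both genotypes. On the log2(FPKM + 1) scale only Ndufb3 reached a 1.5-fold difference in the control, where 16.6% of all genes did (Ndufa2 fell just short of it through the added 1 FPKM), and Ndufb3, Ndufs8 and Sdha did in the KO, where 17.7% did. None was 1.5-fold lower, against 21.3% and 21.8% of all genes. Age is confounded with whatever else differed between the P7 and P14 preparations, and these cannot be told apart.

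**Figure D3:**
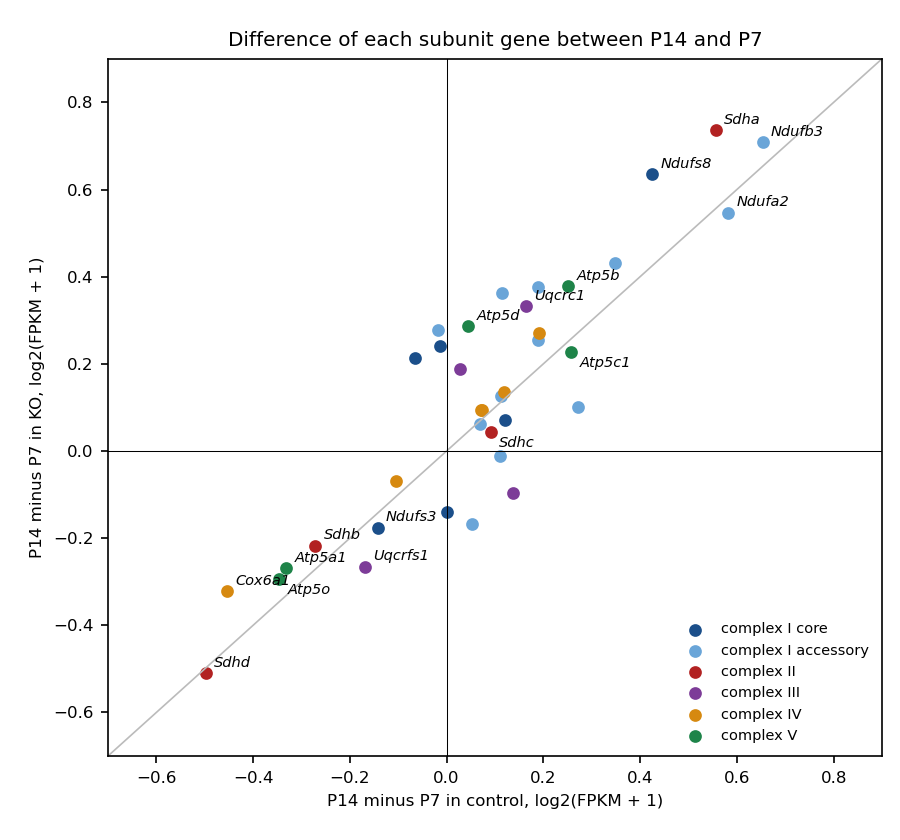
Difference between the P14 and P7 libraries in log2(FPKM + 1) in the control (horizontal) and in the KO (vertical), 1 point per subunit gene, coloured by complex, with the line of equality. The points follow the line (Pearson correlation 0.89), with Ndufb3, Sdha, Ndufa2 and Ndufs8 at the upper right and Sdhd, Cox6a1, Atp5o and Atp5a1 at the lower left.

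Complex II, succinate dehydrogenase, split with age, although its 4 proteins form a complex with 1 copy of each. Sdha, the flavoprotein that oxidises succinate, was at 77.2, 70.9, 114 and 119 FPKM. Both P14 libraries stood above both P7 libraries, and it rose by 0.65 (SE 0.08, adjusted p = 0.000592 with limma). Sdhd, a membrane anchor, was at 90.9, 93.9, 64.1 and 65.6 FPKM, with both P14 libraries below (-0.50, SE 0.07, adjusted p = 0.000981 with limma).

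Sdhb, the iron-sulfur subunit, was at 81.7, 83.7, 67.6 and 71.9 FPKM and also fell (-0.24, SE 0.07, adjusted p = 0.0194 with limma), but its bounds overlapped under median-of-ratios scaling. Sdhc, the other anchor, was at 95.4, 99.0, 102 and 102 FPKM and was not called (0.07, adjusted p = 0.404 with limma). The ratio of Sdha to Sdhb was 0.944, 0.847, 1.69 and 1.65, with intervals of 0.879 to 1.02, 0.788 to 0.911, 1.55 to 1.84 and 1.54 to 1.77. That of Sdha to Sdhd was 0.850, 0.755, 1.78 and 1.81. Neither P14 library overlapped a P7 library in either ratio, and the ratios do not depend on the scaling. These pairs were chosen after the values were seen, each with a member that rose over a member that fell. Their separation largely follows from that choice and is no separate support. The promoters of Sdha and Sdhd, which moved in opposite directions, both held an NRF1 match.

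Complex V split in a similar way. Atp5b rose (0.31, SE 0.07, adjusted p = 0.00757 with limma) and so did Atp5c1, the gamma subunit of the rotor, at 162, 172, 194 and 202 FPKM (0.24, adjusted p = 0.0162 with limma). Atp5a1, whose protein alternates with that of Atp5b in the catalytic ring, fell (-0.30, SE 0.06, adjusted p = 0.00705 with limma). Atp5o, a subunit of the stalk that holds the ring, was at 302, 309, 237 and 252 FPKM and also fell (-0.32, SE 0.06, adjusted p = 0.00528 with limma).

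The ratio of Atp5b to Atp5a1 was 1.66, 1.57, 2.48 and 2.47, and that of Atp5b to Atp5o was 2.17, 2.12, 3.28 and 3.39. In both ratios the P14 libraries lay above the P7 libraries, and the genotypes at P14 had overlapping intervals. These pairs too set a member that rose over a member that fell, chosen after the values were seen, so the age separation is no separate support. Atp5d was not called by age (0.17, adjusted p = 0.115 with limma).

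Complex I genes were higher or not called. Of its 18 members 7 rose and none fell in the limma fit. Ndufb3, a small membrane-arm subunit, was at 70.9, 72.9, 112 and 120 FPKM and rose the most of all 37 (0.68, SE 0.07, adjusted p = 0.000319 with limma). Ndufa2, a matrix-arm subunit, was at 132, 147, 198 and 215 FPKM (0.56, adjusted p = 0.000548 with limma), and Ndufs8, an iron-sulfur subunit, at 41.9, 39.9, 56.5 and 62.5 FPKM (0.53, adjusted p = 0.00178 with limma). In all 3, the P14 libraries lay above the P7 libraries without overlap.

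Ndufa5 rose by 0.39, Ndufa8 by 0.28, Ndufa10 by 0.24 and Ndufb10 by 0.22 on the log2 scale. Among the core subunits, Ndufs1, which carries iron-sulfur clusters, was at 39.5, 39.8, 39.5 and 36.0 FPKM and was not called (-0.07). Ndufs3 was at 93.6, 100.4, 84.7 and 88.8 FPKM, lower at P14 beyond counting error in the KO (-0.18) and within it in the control (-0.14), and not called by limma (-0.16, adjusted p = 0.0753). Ndufs4, an accessory subunit whose loss in mice is a model of Leigh syndrome, was at 37.6, 41.8, 39.0 and 37.1 FPKM, and Ndufa9 at 56.3, 52.7, 55.6 and 64.1 FPKM. Neither was called.

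Ndufb8, the complex I member with the highest level, was at 264, 283, 286 and 309 FPKM (0.12, adjusted p = 0.142 with limma). The remaining members, Ndufa1 and Ndufv2, had differences between -0.06 and 0.16 in every comparison. The ratio of Ndufs8 to Ndufs3 was 0.447, 0.397, 0.667 and 0.704, and that of Ndufb3 to Ndufs1 was 1.79, 1.83, 2.84 and 3.33. In neither ratio did a P14 library overlap a P7 library. Both pairs were chosen after the values were seen, with a member that rose over a member that was not called, so this is no separate support.

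In complex III, Uqcrc1 rose (0.25, SE 0.07, adjusted p = 0.0237 with limma), and Uqcrfs1, the Rieske iron-sulfur protein, was at 97.2, 104, 86.4 and 86.3 FPKM and fell (-0.22, SE 0.07, adjusted p = 0.0311 with limma). The Uqcrfs1 bounds overlapped in the control under median-of-ratios scaling. Uqcrc2 and Cyc1 were not called (0.02 and 0.11).

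In complex IV, 2 of 6 members were called by age. Cox6a1 fell (-0.39, SE 0.07, adjusted p = 0.0032 with limma), and Cox5a, which was at 162, 167, 185 and 201 FPKM, rose (0.23, adjusted p = 0.0212 with limma). Cox4i1, Cox8a, Cox5b and Cox7a2 were not called, with differences of 0.08, 0.08, -0.09 and 0.13. Cox7a2, the lowest of the 6, was at 135, 141, 146 and 155 FPKM, and Cox5b at 228, 251, 212 and 239 FPKM. Cox6a1 and Atp5a1 were thus higher in the KO library at both ages and fell with age.

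A further 40 nuclear subunit genes, the rest of the chain on a list written for this comparison, were set beside the 37. In the control 25 were higher at P14 beyond counting error and 1 was lower, or 62.5% and 2.5%, with a median difference of 0.32, where 27.2% and 37.3% of all genes and 34.9% and 39.6% of abundant genes were. In the KO 27 were higher and 0 lower, with a median of 0.34, where 28.7% and 39% of all genes were. The largest was Uqcrh, the hinge protein of complex III, at 213, 241, 416 and 437 FPKM (0.96 in the control), followed by Uqcrb at 73.0, 72.0, 124 and 121 FPKM (0.76) and Ndufb4 at 54.1, 54.0, 86.9 and 82.4 FPKM (0.67). The 1 that was lower was Ndufv3, at 276, 277, 222 and 247 FPKM.

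Of all 77 subunit genes together, 37 were higher and 7 lower in the control, or 48.1% and 9.09%, and 43 and 7 in the KO, or 55.8% and 9.09%, to be read against the same shares of all genes. By genotype, 3 of the 40 were higher at P7, or 7.5%, where 7.26% of all genes and 16.9% of abundant genes were. At P14 10 were higher, or 25%, where 7.37% of all genes and 20.9% of abundant genes were. At either age 0 were lower. Ndufs5, a small complex I subunit, had the largest P14 difference of the 77, at 95.7, 102, 88.9 and 134 FPKM (0.59). Among the 40, Ndufa12 (0.35) and Ndufa13 (0.25) followed. With the 37, this made 21 of 77 higher at P14, or 27.3%, and 9 at P7, or 11.7%, beside the same shares of all and of abundant genes. The 13 subunits encoded in mitochondrial DNA were not analysed here.

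Of 9 forms of the subunits known from particular tissues, Cox4i2 and Ndufa4l2 were the most abundant. Cox8b was at 1.97, 2.32, 11.8 and 9.18 FPKM and Cox7a1 at 3.14, 3.29, 12.8 and 12.0 FPKM, both higher at P14 beyond counting error, and Cox6a2 did not pass 0.897 FPKM. These 3 are the forms of heart and skeletal muscle. The 7 markers at the low sum given above are of skeletal muscle, and no heart marker was listed. Among the 7, Ckm was higher at P14 beyond counting error in each genotype, at 0.392, 0.342, 1.39 and 1.63 FPKM. Acta1, at 13.1, 12.4, 8.01 and 7.85 FPKM, was lower. The part of muscle tissue in these values was not tested. Cox4i2, a form of subunit 4 known from lung and hypoxic cells, was at 31.7, 25.5, 40.6 and 51.8 FPKM.

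Ndufa4l2, a hypoxia-induced relative of Ndufa4, was at 29.5, 24.7, 4.62 and 9.76 FPKM, and so stood lower at P14 in each genotype. At P14 both were higher in the KO library beyond counting error (0.34 and 0.94). Cox6b2 was at 7.28, 8.22, 10.1 and 12.5 FPKM, Cox7b2 and Cyct did not pass 0.349 FPKM, and Cox8c was listed at 0 in all 4.

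The companion lists below are to be read against 27.2% of all genes higher and 37.3% lower with age in the control, 28.7% and 39% in the KO, and by genotype 7.26% and 6.09% at P7 and 7.37% and 8.18% at P14. Glycolytic genes had larger age differences than the subunit genes. All 17 were higher at P14 beyond counting error in both genotypes, with medians of 1.07 and 1.09. The hexokinase gene Hk2, at 2.09, 2.15, 29.9 and 26.7 FPKM, had the largest difference (3.32 in the control), and Aldoc (2.24) and Aldoa (1.70) followed. The summed FPKM of the 37 subunit genes was 1.64, 1.74, 0.872 and 0.896 times that of the glycolytic genes. By genotype at P14, 9 glycolytic genes were higher and 3 lower, among them Gapdh (0.27) and Hk1 (0.23) higher. Eno1 was at 224 and 185 FPKM at P7 (-0.27), one of 3 that were lower there.

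**Figure D4:**
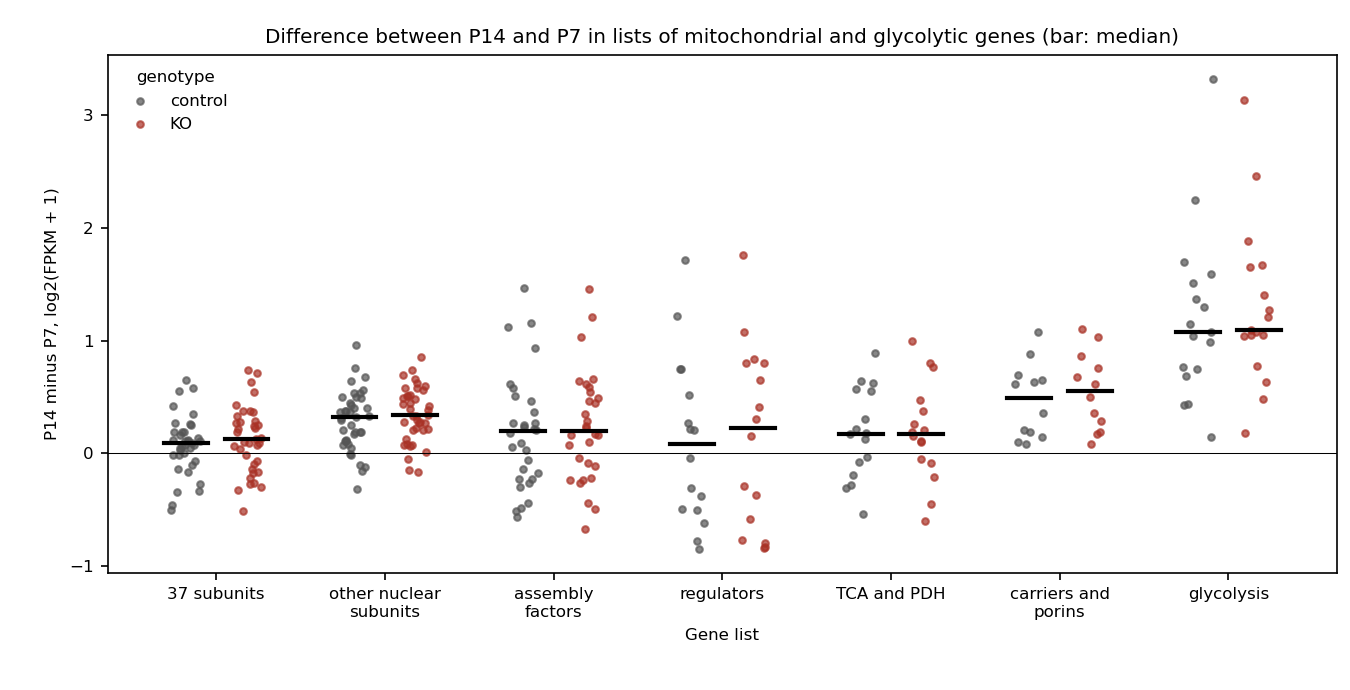
Difference between the P14 and P7 libraries in log2(FPKM + 1) for the genes of 7 lists, in the control (grey) and the KO (red); each point is a gene at a mean of 1 FPKM or more and each bar the median of its list. The 37 subunits have medians of 0.09 and 0.13, the other nuclear subunits 0.32 and 0.34, and the 17 glycolytic genes 1.07 and 1.09.

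Carriers and porins of the mitochondrial membranes were also higher at P14, 10 of 12 in the control and 11 in the KO, with 0 lower. Slc25a4, the adenine nucleotide carrier that exchanges ATP for ADP, was at 538, 570, 846 and 964 FPKM and was higher in the KO library at both ages (0.08 and 0.19). The largest age differences were those of Brp44 (an older symbol of the pyruvate carrier gene Mpc2, 1.07), Ckmt1 (0.88) and Brp44l (Mpc1, 0.69).

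Genes of the tricarboxylic acid cycle and of pyruvate dehydrogenase were mixed, 8 higher and 3 lower of 16 in the control. Fumarase (Fh1) was at 23.2, 20.9, 43.8 and 42.7 FPKM (0.89), with Idh3a (0.64) and Ogdh (0.63) next. Citrate synthase (Cs) was at 94.3, 91.4, 64.7 and 66.7 FPKM (-0.54). By genotype, Pdhb, a subunit of pyruvate dehydrogenase, stood at 62.1 and 53.3 FPKM at P7 and at 70.6 and 60.8 FPKM at P14, so the KO was below the control each time (-0.22 and -0.21). Pdhb lies on chromosome 14 from 8998505 to 9005506, on the same chromosome as Fezf2 (13174406 to 13178379). Whether its difference comes with the targeted locus was not tested.

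Of 35 assembly factor genes, 30 were found. In the control 11 were higher and 4 lower at P14, and by genotype 2 were lower at P7 (Acad9 and Ecsit) and none differed beyond counting error at P14. The largest age differences were those of 2310003L22Rik, an older symbol of Ndufaf5 (1.47), Cox17, a copper chaperone (1.15), and Bcs1l, which inserts the Rieske protein (1.12).

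Of 6 uncoupling and ATPase inhibitor genes, Atpif1 was highest, at 172, 180, 180 and 190 FPKM. Slc25a14 was at 6.43, 5.80, 12.1 and 11.3 FPKM, Slc25a27 at 9.51, 9.12, 9.81 and 7.46 FPKM, and Ucp2 at 3.51, 3.53, 5.76 and 5.38 FPKM. Ucp1 and Ucp3 did not pass 0.288 FPKM.

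The 16 regulators of mitochondrial genes went in both directions with age, 7 higher and 7 lower in the control. Esrrb, an orphan nuclear receptor known from rods, was at 28.2, 28.9, 94.9 and 100.3 FPKM (1.71), and the coactivator gene Ppargc1a at 4.54, 3.89, 8.31 and 7.54 FPKM (0.75). Tfam, which packages mitochondrial DNA, was at 10.9, 10.8, 5.58 and 5.65 FPKM (-0.85).

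Of the factors tied to the motifs searched, Nrf1, Gabpa and Yy1 had genes lower at P14 beyond counting error in each genotype. Nrf1 was at 18.3, 20.0, 10.3 and 11.1 FPKM, Gabpa at 10.5, 11.3, 7.14 and 5.89 FPKM, and Yy1 at 27.9, 27.5, 19.4 and 21.1 FPKM. Other genes of the ETS family were not examined. At P14, Esrra was higher in the KO library (15.3 against 19.7 FPKM, 0.35) and Gabpa and Gabpb1 were lower (-0.24 and -0.27). Tfb1m, at 1.39, 0.978, 4.57 and 3.18 FPKM, had the largest genotype difference of the list (-0.41 at P14), within counting error. Nrf1, Gabpa, Gabpb1, Yy1, Ppargc1a and Cs were named with their values known.

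Marker genes of retinal cell types also differed between the ages. The summed rod genes were at 2631, 2748, 9230 and 9822 FPKM and the Mueller glia genes at 369, 357, 1451 and 1517 FPKM. The dividing progenitor genes summed to 4.38, 4.64, 0.391 and 0.290 FPKM, and the bipolar genes to 411, 400.3, 193 and 163 FPKM. Of the 5 rod genes 4 were higher and 1, Nr2e3, lower at P14 in each genotype. The part of these differences in the subunit values was not tested.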

How the data were processed

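Total RNA of whole retina was read as 36-base single ends, unstranded, per the labels' protocols. The authors deposited FPKM with lower and upper bounds for 23021 loci per library, per the file headers. The build (mm9) and the tools, Cufflinks 2.1.1 after TopHat2 2.0.8b and CASAVA 1.8.2, are those of the submitters' processing notes; annotation and options: not given in the sources used here. FPKM divides by an effective length, which inflates short genes, and the files hold no counts, so depth was inferred from the bounds and no count test was run.

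Rows of 1 symbol were summed, and coordinates counted from 1. With 1 library per group, no test was made between single libraries: differences of log2(FPKM + 1), which understate changes of low genes, were described with the overlap of the bounds, for genes that reached 1 FPKM in either library. The limma fit (limma 3.58.1, R 4.3.3; checked on simulated data) took genes that reached 1 FPKM in 2 libraries, genotype and age as additive terms, a variance trend and Benjamini-Hochberg adjustment over all 13057 genes. The bounds are read as covering counting error only. Amplified reads are not independent molecules, so the bounds may understate even that error.

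The members and gene lists were chosen with earlier results of these data known, and the background of genes at 30 FPKM or more, the midpoint of the bounds in place of FPKM and the ratio pairs after the values were seen. Genes were named by rule: per complex the highest and lowest by level and by age difference, the 8 largest genotype differences beyond the bounds per age, and up to 3 genes per companion list by genotype and 3 by age at a mean of 2 FPKM or more. Of the companion lists, Ndufaf6, Ndufaf7, Timmdc1, Cox14, Coa5 and the marker Tfap2b were not matched. Another marker gene is not reported here. Uqcc1, Mterf1a, Pkm, Mpc1, Mpc2 and Ndufaf5 were matched by older symbols. Promoters and the NRF1, ETS and YY1 letter searches used RefSeq windows on GRCm38.p6, never mixed with mm9 coordinates. Alternatives changed the pseudocount, scaling, filter, variance trend and strictness of the bounds.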

Additional observations from a re-analysis of the deposited data

How the results depend on the processing

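No paired analysis was possible because each group is 1 library and the labels carry no replicate numbers, and leaving out a library would leave the additive fit without a residual degree of freedom. Single member values, 592 in all, were recomputed with another pseudocount or scaling, and a reversal was counted only for members beyond counting error as deposited. These were 7 and 11 by genotype at P7 and P14, and 18 and 23 by age in control and KO. None of them reversed, which a change of pseudocount could not have caused. Signs of other members did change, such as that of Ndufa8 by genotype at P7, from 0.043 to -0.00058 without small RNAs and short loci. Scaling mattered most for age. The members' median age difference was 0.21 (control) and 0.24 (KO) with median-of-ratios scaling, 0.040 in the KO at a constant sum over all loci, and -0.0044 (control) and 0.017 (KO) at a constant sum without small RNAs and short loci. At that last scaling, 2 members were higher and 2 lower by genotype at P7 and 2 lower at P14. For age, 7 were higher in the control and 11 lower in the KO, and 0 were 1.5-fold higher and 1 lower in the control and 1 lower in the KO. For scaling, pseudocount and the 25% rule, counts that stayed within 1.5-fold of those as deposited are left out. Of the age calls as deposited, 13 of 18 in the control and 18 of 23 in the KO remained, and those lost had been higher at P14. The shares of all genes under these settings were not computed. With median-of-ratios scaling 22 were higher with age in the control. A pseudocount of 0.1 FPKM made 2 members 1.5-fold higher there. Asking also for a 25% difference left 0 higher and 0 lower at P7, 1 higher at P14, 5 higher with age in the control, and 9 higher and 1 lower in the KO. The limma age term called 11 members with no filter on low values and 13 to 25 under the other settings, and the genotype term called 0 under each. The cause was not tested. The half-width of a member's bounds reached 11.0% of the level, and 2 libraries separate only where they differ by more than both half-widths together.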
